A study of Mus musculus with 6 samples.

Results

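The adaptors and kinases that carry the signal of Toll-like and NOD receptors were examined in neutrophils of cGAS knockout mice after lipopolysaccharide (LPS). They are the 10 genes Myd88, Tirap, Irak2, Irak3, Tollip, Traf1, Traf6, Map3k7, Tab2 and Ripk2, taken by gene symbol from a table of 38739 genes, and all 10 were measured. All 6 samples came from cGAS-/- animals on the C57BL/6 background, so both groups lack cGAS, the cytosolic DNA sensor, and no wild-type sample is part of the comparison. The animals were male and 8 weeks old by the methods of the study. Neutrophils were washed from the peritoneum 2 h after an injection of 3% thioglycolate and kept in culture medium for 2 h, without an addition (untreated, n = 3) or with LPS from Escherichia coli (n = 3). The labels give a dose of 500 ng/mL, and the methods of the study give a lower one for the sequenced cells. The labels do not say whether the 3 samples of a group came from separate animals or cultures, so the p-values measure the spread between these samples, which may be technical.

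Toll-like receptors and the receptors of the interleukin-1 family signal through MyD88, which the adaptor TIRAP brings to the membrane below TLR2 and TLR4. MyD88 gathers the IRAK kinases, these engage the ubiquitin ligase TRAF6, and the ubiquitin chains recruit the kinase TAK1 (gene Map3k7) through its partner TAB2, which leads to NF-κB and the MAP kinases. IRAK-M (gene Irak3) and Tollip are known as brakes at the IRAK step, TRAF1 is itself a target of NF-κB, and RIPK2 links the NOD receptors to the same TAK1 step. In neutrophils this route is known for the rapid release of cytokines and chemokines after contact with bacteria.

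Ripk2 and Traf1 rose most, by 18.4-fold and 16.1-fold in the group means. Map3k7, Tollip and Irak3 rose as well, whereas Myd88, Tirap, Irak2 and Tab2 had overlapping groups. In limma on log2(value + 1), a call needed p under 0.01 before adjustment and a log2 difference beyond 2, the limits of the study. By this rule 5 of the 10 genes were called higher and 0 lower, against 1.69% and 1.31% of the 23049 genes tested. At a Benjamini-Hochberg adjusted p under 0.05 in limma, 4 of the 10 were higher, against 0.894% of all genes. The 4 became 0 without LPS sample 1, without LPS sample 3 and with the replicate number as a block, where 1 gene of all those tested was higher at this limit in each case, while 5 of the 10 were called by the first rule in each. The 4 became 1 without untreated sample 3 or LPS sample 2, and 2 without untreated sample 1. The genes tested include many near 0, so a fit was also kept to the 9403 genes with a mean of at least 1. There 5 of the 10 were called higher, among 406 genes. At an adjusted p under 0.05 in limma 6 of the 10 were higher there, among 557 genes. The lowest LPS sample lay above the highest untreated sample for 6 of the 10, against 13.1% of all genes, and for 0 of the 10 all LPS samples lay below all untreated ones, against 9.75%. The median log2 difference of the 10 genes was 2.02, beside 0.013 over all genes tested. Values are scaled TPM, a length-corrected share of the library that was averaged across each gene's transcripts and then rescaled with a single factor for each sample. The number of reads behind them is unknown.

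The share of the summed values that fell on protein-coding genes was 21.6% to 29.0% in the untreated samples and 50.6% to 60.0% after LPS. This moves with the treatment, and the median log2 difference of the 6004 protein-coding genes with a mean of at least 1 was 0.37. When each sample was scaled to its protein-coding total, that median became 0.017, and every difference of the 10 genes became lower by 0.28 to 0.49 on the log2 scale. Under that scaling 2 of the 10 genes were called, Traf1 and Ripk2. Over all genes, 218 were then called higher and 514 lower, in place of 389 and 301. Cgas, the deleted gene, was low in all 6 samples, at 0.203, 0.307 and 0.180 untreated and at 0.184, 0.0713 and 0.0286 after LPS.

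The values of 12 measured neutrophil markers summed to 9657 to 28410 untreated and 16030 to 54610 after LPS, with 86.4% to 93.1% of each sum from the granulocyte alarmins S100a8 and S100a9. Of the 12, 11 were above 0 in every sample, and Elane, which encodes neutrophil elastase, was listed at 0 in all. Mpo, another gene of primary granules, lay between 0.0181 and 0.138. For 9 of the 11 the groups overlapped, S100a8 among them (2086 to 8405 untreated, 5536 to 19850 after LPS). The other 2 were lower in all LPS samples, the chemokine receptor gene Cxcr2 (39.4 to 120 untreated, 7.10 to 23.6 after LPS) and Csf3r, which encodes the G-CSF receptor (251 to 525 and 138 to 233). Lymphocyte markers (11 measured) summed to 156 to 555 and 71.5 to 246, and macrophage markers (7 measured, without Csf1r and Adgre1) to 1062 to 1534 and 766 to 1080. Most of the macrophage sum came from Lyz2, at 872 to 1367 untreated and 532 to 695 after LPS. Cd68 went the other way, at 157 to 179 untreated and 230 to 382 after LPS, so the sum gives no direction for macrophages. In each group the second sample had the highest neutrophil sum and the lowest lymphocyte sum. Mast cell and eosinophil markers (7 measured, Epx listed at 0) summed to 6.59 to 41.4 and 5.77 to 50.1, mesothelial and fibroblast markers (6 measured) to 0.564 to 2.70 and 0.910 to 1.12, and erythroid and platelet markers (5 measured) to 18.0 to 1716 and 94.8 to 2573. In each group sample 3 had the highest mast cell and eosinophil sum and the highest erythroid and platelet sum. The part of these sums in the results was not tested. In such bulk samples, fewer cells of a type and less RNA per cell cannot be told apart.

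The sequences before the starts of Map3k7, Myd88 and Traf1 are shown because the first 2 hold a motif that was searched for and Traf1 rose strongly. Promoters of 9 of the 10 genes were found in the RefSeq table (GRCm38.p6, 250 bases before to 50 after the start), and Ripk2 has no entry there. These 9 genes have 12 promoters, and a gene counts if any of its promoters holds the motif. The shares beside them are over single promoters. The κB motif, to which NF-κB binds, was found on either strand in 1 of these 9 genes, Map3k7, from -92 to -83 counted from the start, and in 8.46% of 32851 promoters. The core GAAANNGAAA of the interferon-stimulated element was found in 1 of 9, Myd88, from -40 to -31, and in 3.44% of all promoters. The AP-1 motif TGANTCA was found in 0 of 9 and in 7.81% of all. The motifs did not overlap in these promoters. Below are the 250 bases before the start of Map3k7 (chr4:31963857-31964106, plus strand), Myd88 (chr9:119340019-119340268, minus strand) and Traf1 (chr2:34961773-34962022, minus strand, without a motif), with motif matches in capitals.
Map3k7: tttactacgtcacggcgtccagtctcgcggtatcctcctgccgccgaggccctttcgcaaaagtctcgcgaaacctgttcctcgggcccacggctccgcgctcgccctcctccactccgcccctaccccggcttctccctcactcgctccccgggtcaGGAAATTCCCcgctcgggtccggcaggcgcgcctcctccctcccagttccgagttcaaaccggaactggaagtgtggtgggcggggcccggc
Myd88: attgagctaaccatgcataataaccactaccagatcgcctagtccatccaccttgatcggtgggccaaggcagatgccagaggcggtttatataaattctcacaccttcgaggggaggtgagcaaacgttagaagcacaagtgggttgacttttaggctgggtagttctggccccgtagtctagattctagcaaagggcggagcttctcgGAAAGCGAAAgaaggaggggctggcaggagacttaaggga
Traf1: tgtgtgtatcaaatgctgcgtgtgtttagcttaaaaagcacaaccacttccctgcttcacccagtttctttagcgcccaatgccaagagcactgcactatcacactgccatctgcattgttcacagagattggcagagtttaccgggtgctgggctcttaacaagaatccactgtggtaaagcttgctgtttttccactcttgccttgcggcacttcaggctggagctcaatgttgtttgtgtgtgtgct

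**Figure D1:**
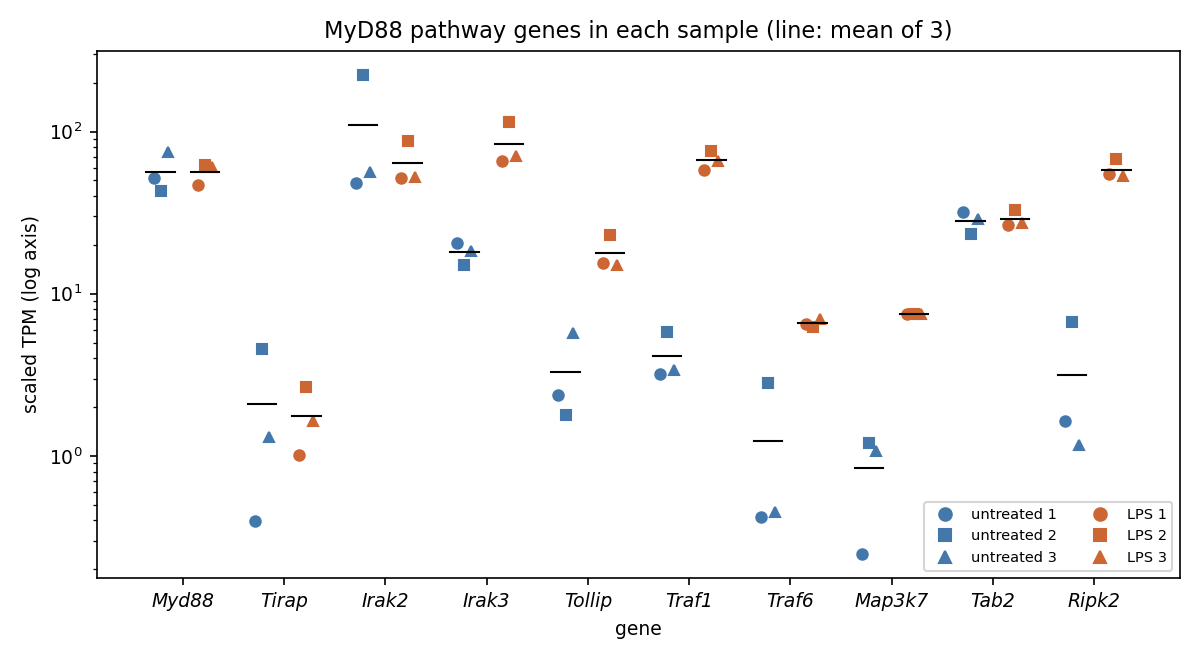
Scaled TPM (log axis) of the 10 genes in each of the 3 untreated (blue) and 3 LPS (orange) samples, with a line at each group mean and 1 symbol shape per sample number. The groups are apart for Irak3, Tollip, Traf1, Traf6, Map3k7 and Ripk2 and overlap for Myd88, Tirap, Irak2 and Tab2.

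At the receptor end, Myd88 (chr9:119165000-119170486, minus strand, GRCm39, as all gene positions here) encodes the adaptor shared by most Toll-like receptors. Its level was 51.4, 43.1 and 74.4 in the untreated samples 1 to 3 and 46.7, 62.4 and 60.6 in the LPS samples 1 to 3. The groups overlapped, with both the highest and the lowest value among the untreated samples. The means were 56.3 ± 16.2 and 56.6 ± 8.62 (SD, n = 3 each), a log2 difference of 0.033 (SE 0.32, 95% interval -0.76 to 0.82, limma with Benjamini-Hochberg adjusted p = 0.96). Under the protein-coding scaling the difference was -0.45 (interval -1.37 to 0.47), so no direction is given for Myd88. A stretch of 224 bases of Myd88 is identical to a part of its neighbour Acaa1a, which overlaps it on the opposite strand.

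Tirap (chr9:35095542-35111654, minus strand), the bridge between the membrane and MyD88, was among the lowest of the 10. It stood at 0.398, 4.54 and 1.30 untreated and at 1.01, 2.65 and 1.64 after LPS. The second sample was the highest in both groups, and the LPS values lay within the untreated range. The log2 difference was 0.040 (SE 0.58, interval -1.37 to 1.45, adjusted p = 0.98 in limma). Tirap shares near-identical stretches, of at least 150 bases at 95% identity or more on either strand, with 5 other genes. The longest, of 443 bases, is shared with Gm39318, which overlaps Tirap on the opposite strand.

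Of the IRAK genes, Irak3 rose and Irak2 had overlapping groups. Irak2 (chr6:113615386-113672470, plus strand), which sustains signalling to TRAF6, stood at 48.3, 224 and 56.7 untreated and at 51.9, 88.1 and 52.4 after LPS. Untreated sample 2 was the highest of all 6, and the other untreated samples lay within or near the LPS range. The log2 difference was -0.45 (SE 0.65, interval -2.02 to 1.13, adjusted p = 0.72 in limma), and it became 0.24 without untreated sample 2. Irak2 shares near-identical stretches, on either strand, with 43 other genes. The longest, of 679 bases, is shared with Gm67402, which overlaps Irak2 on the opposite strand. How far such stretches affect the values of Irak2 was not tested. A transcript of 538 bases on the same strand within Irak2, Gm43912, lies outside the exons of Irak2. Its values were 90.6, 113 and 76.7 untreated and 20.2, 54.0 and 24.8 after LPS, with a log2 difference of -1.58 (adjusted p = 0.13 in limma), and it was chosen after its values were seen.

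Irak3 (chr10:119975568-120038035, minus strand) encodes IRAK-M, a family member known to hold MyD88 signalling back. It stood at 20.5, 15.1 and 18.4 untreated and at 65.9, 115 and 70.2 after LPS. All 3 LPS samples were above all untreated ones, LPS sample 2 most. The mean rose from 18.0 ± 2.73 to 83.8 ± 27.2 (SD, n = 3 each), a log2 difference of 2.12 (SE 0.33, interval 1.31 to 2.94, adjusted p = 0.043 in limma). The difference fell below the fold limit without LPS sample 2 (1.87) and under the protein-coding scaling (1.64, adjusted p = 0.066), in the same direction. Within each sample, which no factor per sample can change, the ratio of Irak3 to Irak2 was 0.424, 0.0673 and 0.325 untreated and 1.27, 1.31 and 1.34 after LPS. The ratio was thus higher in every LPS sample than in any untreated one. It does not rank the genes by level, as each value is a mean over transcripts, with 5 annotated for Irak3 and 16 for Irak2.

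Tollip (chr7:141428550-141472244, minus strand) encodes a ubiquitin-binding protein that holds IRAK1 in check at rest. Its values were 2.36, 1.80 and 5.75 untreated and 15.5, 23.1 and 14.9 after LPS. The groups did not overlap, and untreated sample 3 came nearest to the LPS values. The means were 3.30 ± 2.14 and 17.9 ± 4.60 (SD, n = 3 each), a log2 difference of 2.21 (SE 0.43, interval 1.16 to 3.27, unadjusted p = 0.0021 and adjusted p = 0.067 in limma). Tollip was therefore called by the limits of the study but not at an adjusted p under 0.05, and it was not called without LPS sample 2 (2.02, unadjusted p = 0.011) or without untreated sample 2 (1.96). Under the protein-coding scaling its difference was 1.78 (adjusted p = 0.14). Against Myd88 in the same sample, Tollip stood at 0.0459, 0.0418 and 0.0773 untreated and at 0.331, 0.371 and 0.247 after LPS.

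Of the TRAF genes, Traf1 rose, and Traf6 had groups apart but missed the fold limit. Traf1 (chr2:34831762-34851837, minus strand) encodes the only TRAF protein without the RING domain of a ubiquitin ligase. It stood at 3.22, 5.83 and 3.39 untreated and at 58.1, 75.9 and 65.7 after LPS. The lowest LPS sample was far above the highest untreated one. The mean rose from 4.15 ± 1.46 to 66.6 ± 8.95 (SD, n = 3 each), a log2 difference of 3.74 (SE 0.32, interval 2.96 to 4.52, adjusted p = 0.011 in limma), which ranked 45 among all genes by size of rise. Traf1 was called in all 17 alternative fits, with log2 differences from 2.97 to 4.02. A stretch of 349 bases is identical to the lncRNA gene Gm74856, which overlaps Traf1 on the opposite strand.

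Traf6 (chr2:101508519-101533545, plus strand), the ubiquitin ligase of the route, was the lowest of the 10 in untreated cells by its median. It stood at 0.418, 2.81 and 0.450 untreated and at 6.50, 6.22 and 6.97 after LPS. The LPS samples lay within a narrow range, all above the untreated samples, of which sample 2 was the highest. The means were 1.23 ± 1.37 and 6.56 ± 0.38 (SD, n = 3 each), a log2 difference of 1.93 (SE 0.47, interval 0.79 to 3.06, unadjusted p = 0.0059 and adjusted p = 0.10 in limma). It missed the fold limit and was not called, but without untreated sample 2, its highest untreated value, the difference was 2.40 (adjusted p = 0.031 in limma). Without any other 1 sample it was 1.68 to 1.96 (unadjusted p from 0.021 to 0.028 in limma). Under the protein-coding scaling the difference was 1.64 (adjusted p = 0.16 in limma). As its untreated values are low, the difference ran from 0.91 with a pseudocount of 5 to 2.82 with 0.1, and it passed both limits with 0.1 (unadjusted p = 0.0089) and with voom weights (2.31, unadjusted p = 0.0064). Against Traf2, another TRAF gene, which stood at 17.4, 20.0 and 19.1 untreated and at 9.11, 12.2 and 10.7 after LPS, the ratio of Traf6 within a sample was 0.0241, 0.141 and 0.0236 untreated and 0.714, 0.510 and 0.653 after LPS. The ratio of Traf1 to Traf2 was 0.186, 0.292 and 0.178 untreated and 6.38, 6.23 and 6.15 after LPS. In these means over transcripts, with 15 annotated for Traf1 and 16 for Traf2, Traf1 was below Traf2 in each untreated sample. It was above Traf2 in each LPS sample.

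Traf6 mRNA is a textbook target of miR-146a, a microRNA that NF-κB induces and that damps this route, so the matching letters are shown. The mature miR-146a-5p (RefSeq, GRCm38.p6, chr11:43374435-43374456, minus strand) is given with its seed, bases 2 to 8, in capitals, and the 4 seed matches AGTTCTC in the 3′UTR of Traf6 follow with the match in capitals. They lie at chr2:101528290-101528312, chr2:101528354-101528376, chr2:101529166-101529188 and chr2:101531690-101531712 (GRCm39, plus strand), in this order.
miR-146a-5p: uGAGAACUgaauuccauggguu
Traf6 site 1: ccgctctggtgttgAGTTCTCat
Traf6 site 2: ccctggaaggcttaAGTTCTCaa
Traf6 site 3: gtactttggagtctAGTTCTCag
Traf6 site 4: gactttgctactgcAGTTCTCaa

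A match was present in the 3′UTR of 4 of the 10 genes, 4 in Traf6, 2 each in Tirap and Irak2 and 1 in Tollip, beside 12.3% of 20702 genes. A longer 3′UTR holds more matches by length alone, and 8 of the 10 genes have one above the median of 1084 bases (Traf6 5701, Tirap 3665, Tollip 2784, Irak2 1729), so nothing is read from the 4 of 10. A match of letters does not show binding. The short hairpin gene Mir146 was listed at 321, 100.1 and 178 in the untreated samples and at 0 in all 3 LPS samples (adjusted p = 0.0041 in limma). It was chosen after its values were seen, and a library of mRNA fragments does not measure the mature microRNA.

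In the TAK1 complex, the kinase gene Map3k7 rose and the groups of its partner Tab2 overlapped. Map3k7 (chr4:31963864-32051628, plus strand) stood at 0.249, 1.19 and 1.07 untreated and at 7.54, 7.55 and 7.45 after LPS. The LPS samples were nearly equal, and all were above the untreated ones. The mean rose from 0.839 ± 0.514 to 7.51 ± 0.053 (SD, n = 3 each), 8.96-fold, with a log2 difference of 2.25 (SE 0.34, interval 1.43 to 3.08, adjusted p = 0.039 in limma). Because the untreated values are low, this difference depends on the pseudocount, from 1.10 with 5 to 3.23 with 0.1. Without untreated sample 1 it was 1.997, just below the fold limit, and under the protein-coding scaling 1.94 (adjusted p = 0.065). A processed pseudogene, Gm8188, is 95.1% identical over 1708 bases. It was listed at 0 in 5 of the 6 samples and at 0.0541 in LPS sample 1.

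Tab2 (chr10:7781417-7832252, minus strand), the adaptor that binds ubiquitin chains for TAK1, stood at 31.9, 23.4 and 29.0 untreated and at 26.6, 32.9 and 27.2 after LPS. The groups overlapped throughout. The log2 difference was 0.045 (SE 0.28, interval -0.63 to 0.72, adjusted p = 0.94 in limma), and -0.43 (interval -1.20 to 0.34) under the protein-coding scaling. The ratio of Map3k7 to Tab2 within a sample was 0.00781, 0.0510 and 0.0371 untreated and 0.284, 0.229 and 0.274 after LPS. The ratio was thus higher in every LPS sample than in any untreated one. It does not rank the genes by level, as each value is a mean over transcripts, with 28 annotated for Map3k7 and 6 for Tab2.

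Ripk2 (chr4:16121400-16163796, minus strand), the kinase below NOD1 and NOD2, had the largest rise of the 10 genes on the scale as deposited. It stood at 1.64, 6.71 and 1.17 untreated and at 54.5, 67.4 and 53.1 after LPS. All LPS samples were far above the untreated ones, of which sample 2 was the highest. The mean rose from 3.17 ± 3.07 to 58.4 ± 7.90 (SD, n = 3 each), a log2 difference of 4.06 (SE 0.53, interval 2.77 to 5.36, adjusted p = 0.029 in limma), which ranked 31 among all genes. Ripk2 was called in all 17 alternative fits, with log2 differences from 3.01 to 4.62. Its ratio to Myd88 within a sample was 0.0319, 0.156 and 0.0158 untreated and 1.17, 1.08 and 0.876 after LPS.

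**Figure D2:**
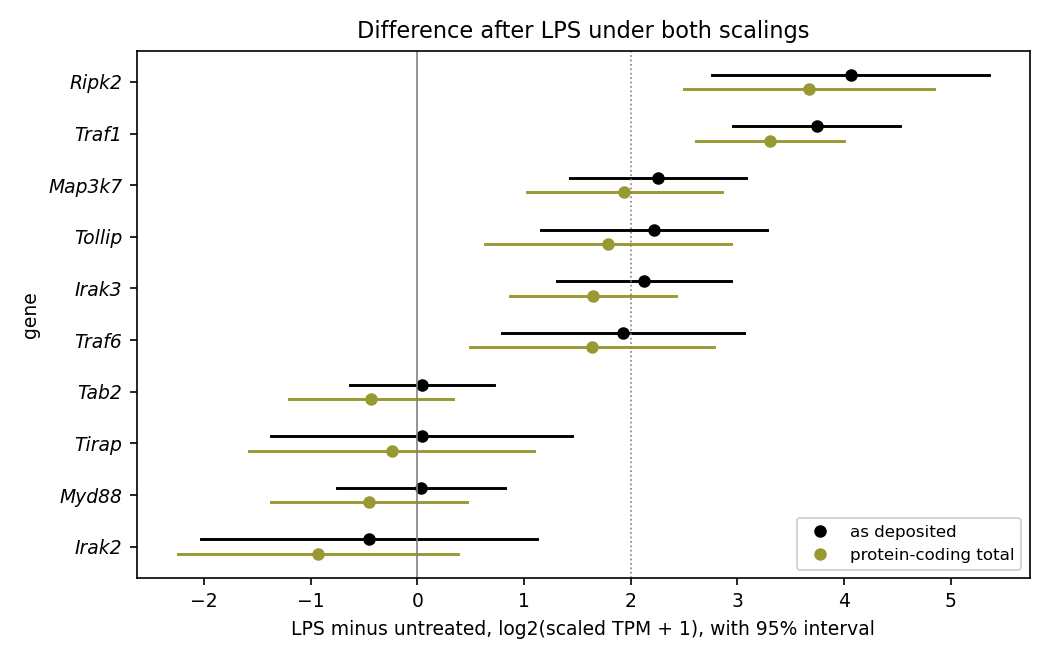
Difference of LPS minus untreated in log2(scaled TPM + 1) for each of the 10 genes, with its 95% interval, on the values as deposited (black) and scaled to the protein-coding total (olive). The solid line marks no difference and the dotted line the fold limit of 2, which Traf1 and Ripk2 exceed under both scalings.

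**Figure D3:**
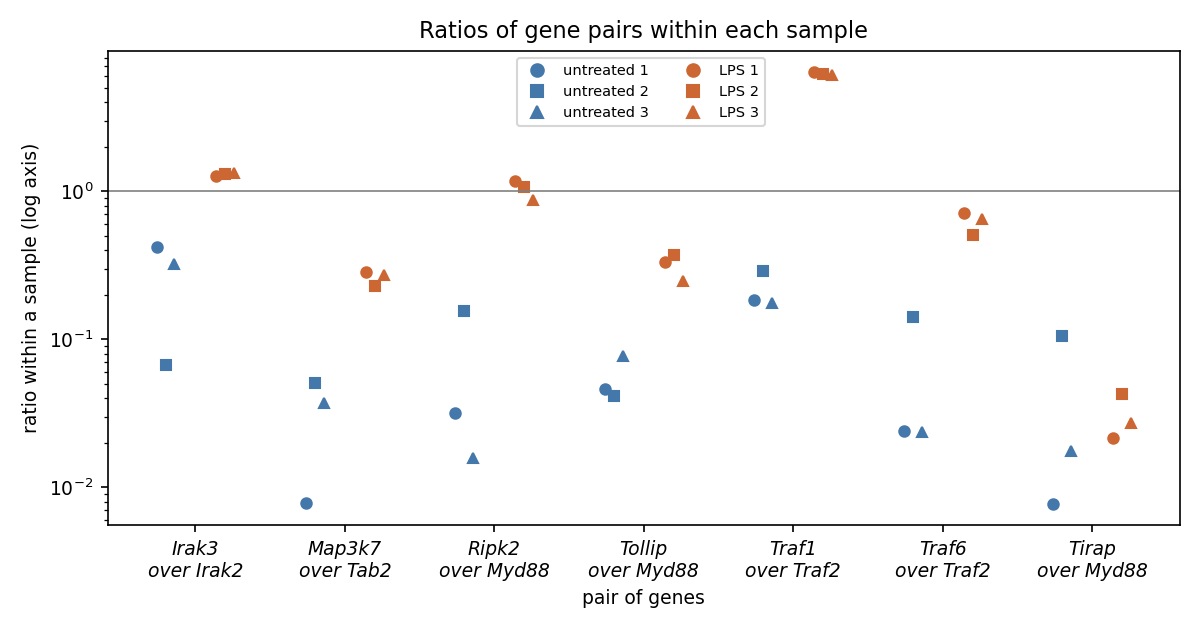
Ratio of gene pairs within each of the 3 untreated (blue) and 3 LPS (orange) samples, on a log axis, with a line at equal values. The groups are apart for 6 of the 7 pairs and overlap for Tirap over Myd88.

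These ratios were chosen after the values were seen and carry no test. Among those given, the groups overlapped for Tirap over Myd88, at 0.00776, 0.105 and 0.0175 untreated and 0.0216, 0.0425 and 0.0271 after LPS.

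By the median of 3 samples, the order of levels in untreated cells was Irak2 (56.7), Myd88 (51.4), Tab2 (29.0), Irak3 (18.4), Traf1 (3.39), Tollip (2.36), Ripk2 (1.64), Tirap (1.30), Map3k7 (1.07) and Traf6 (0.450). Neighbours were apart in all samples from Myd88 down to Traf1, and Irak2 and Myd88, like the genes from Traf1 downwards, overlapped with their neighbours. After LPS the order was Irak3 (70.2), Traf1 (65.7), Myd88 (60.6), Ripk2 (54.5) and Irak2 (52.4), which overlapped with their neighbours. Below them came Tab2 (27.2), Tollip (15.5), Map3k7 (7.54), Traf6 (6.50) and Tirap (1.64), each apart from its neighbours in all samples. TPM is per transcript length, but each value is also a mean over the transcripts of the gene, so the order between genes carries the number of transcripts annotated for each.

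The untreated samples were less alike than the LPS samples. The highest untreated value was a median of 3.92 times the lowest over the 10 genes, against 1.32 times after LPS, and the untreated range was the wider one in 9 of 10. Over 7534 genes above 0 in all samples and with a mean of at least 1, these medians were 3.77 and 1.69, and the untreated range was wider in 81.4%. Among the LPS samples, sample 2 was the highest for 9 of the 10 genes (42.3% of the 7534 genes), and among the untreated samples, sample 2 was the highest for 6 of 10 (34.3%). Sample 2 also had the highest protein-coding total in each group. Relative to the geometric mean of all samples, it was 1.07, 1.45 and 1.075 in LPS samples 1 to 3 and 0.80, 0.99 and 0.76 untreated. These counts were not repeated under the protein-coding scaling, so they are not read as a trait of the 10 genes.

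Around the 10 genes, 40 further components of the route were listed, of which 23 were measured. Irak1, Irak4, Tab1 and Tab3 are among the 17 not analysed here. By the same limits 0 of the 23 were called higher and 1 lower, Card9, against 1.69% and 1.31% of all genes tested. In limma, 5 were higher and 2 lower with p under 0.05 before adjustment, against 10.3% and 6.66% of all genes. With adjusted p under 0.05, 0 were higher and 1 lower, the latter against 0.946% of all genes, and the median log2 difference was 0.26. Card9, the adaptor that works with RIPK2, stood at 19.5, 37.3 and 35.0 untreated and at 1.74, 3.74 and 1.73 after LPS, with a log2 difference of -3.21 (SE 0.41, adjusted p = 0.026 in limma). It thus fell while Ripk2 rose, and the ratio of Ripk2 to Card9 went from 0.0840, 0.180 and 0.0335 to 31.3, 18.0 and 30.8. Traf3 (log2 difference 1.84, SE 0.31, adjusted p = 0.051) and Nod1 (1.75, SE 0.56, adjusted p = 0.18) had the largest positive differences of the 23 in limma without being called, and both passed the limits without untreated sample 2 (2.01 and 2.34).

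Of 21 receptors and co-receptors, 14 were measured, with a median log2 difference of -0.10. By the same limits 0 of the 14 were called lower, against 1.31% of all genes tested, and 3 were called higher, against 1.69%. These were Tlr1 (3.29, SE 0.69, adjusted p = 0.077 in limma), Tlr2 (2.84, SE 0.50, adjusted p = 0.053) and Tlr6 (2.01, SE 0.32, adjusted p = 0.043), which pair as receptors of bacterial lipopeptides. Tlr1 was not called without untreated sample 2 or 3 or any 1 of the LPS samples (2.77 to 3.39), nor Tlr6 without untreated sample 3 (1.83) or LPS sample 1 (1.86) or under the protein-coding scaling (1.53). Tlr4, the LPS receptor, stood at 7.30, 22.3 and 5.42 untreated and at 6.41, 8.57 and 5.44 after LPS, with overlapping groups. The most negative were Tlr5 (-0.90, SE 0.65, adjusted p = 0.55) and Il1rl1 (-0.76, SE 0.72, adjusted p = 0.58), neither of them called.

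As targets, 20 genes that the route is known to induce were listed, of which 15 were measured. By the same limits 11 of the 15 were called higher and 0 lower, against 1.69% and 1.31% of all genes tested. At an adjusted p under 0.05 in limma 8 were higher, against 0.894% of all genes, and the median log2 difference was 3.04. The largest were the chemokine genes Cxcl3 (5.57, SE 0.54, adjusted p = 0.014) and Cxcl1 (4.90, SE 0.67, adjusted p = 0.033), Il1a (5.23, SE 1.06, adjusted p = 0.072) and Ptgs2 (4.33, SE 0.70, adjusted p = 0.046), which encodes cyclooxygenase 2. Il1a was not called without untreated sample 3 or any 1 of the LPS samples (4.89 to 5.32). The median of the 10 adaptors and kinases thus lay between those of the receptors and of the targets, as a description without a test. The median of the 23 partners, 0.265, lay between them as well, near that of the receptors.

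**Figure D4:**
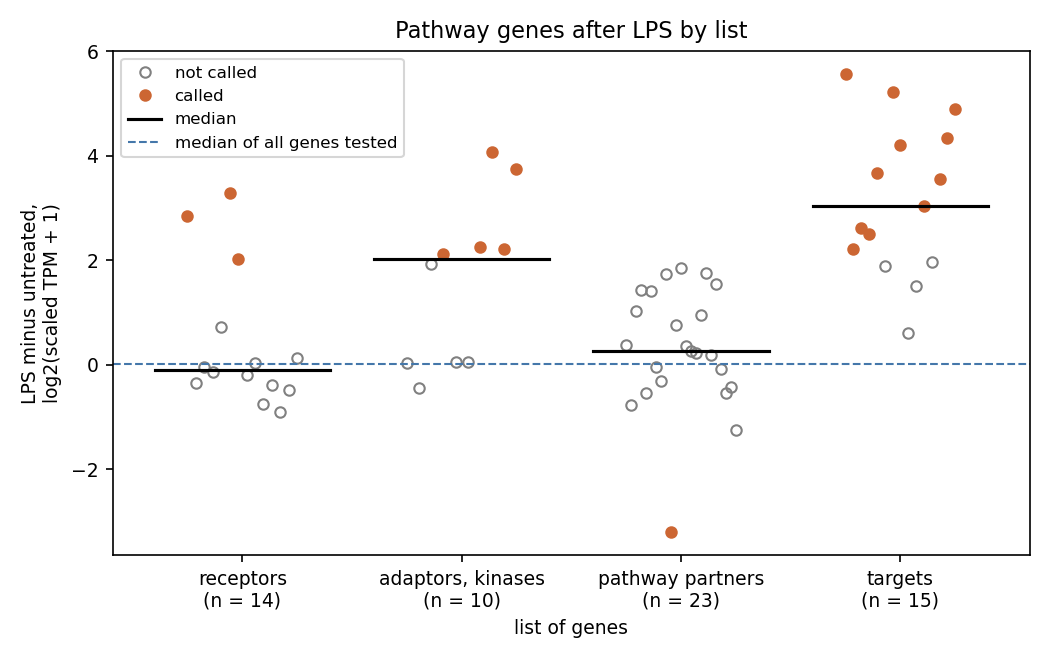
Difference of LPS minus untreated in log2(scaled TPM + 1) for each measured gene of 4 lists (points, orange where called), with the median of each list (black) and of all genes tested (dashed). The medians are -0.10 for 14 receptors, 2.02 for the 10 adaptors and kinases, 0.26 for 23 pathway partners and 3.04 for 15 targets.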

How the data were processed

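RNA of 3 untreated and 3 LPS-treated samples of cGAS-/- peritoneal neutrophils was sequenced from stranded paired-end mRNA libraries. Per the submitters' processing notes and the methods of the study, fastp, STAR and Kallisto were used, with GRCm39 (mm10 is also named), and normalization was done with edgeR. The deposited table is called normalized counts, but its values behave as TPM that the authors averaged across each gene's transcripts and rescaled with a single factor for each sample. Of 1377 values with at least 13 digits in untreated sample 3, 82.1% became short (at most 8 digits) when multiplied by a whole number from 3 to 30, against 0% of rescaled controls. Counts cannot be recovered, so depth is unknown and count tests were not run.

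Genes above 0 in any sample (23049) were fitted with limma 3.58.1 in R 4.3.3 (lmFit, eBayes with a trend, two-sided) on log2(value + 1), 6 samples, no covariates, with Benjamini-Hochberg adjustment over all 23049. Calls need an unadjusted p under 0.01 and a log2 difference beyond 2. The fit was tested on simulated data. The genes and lists were chosen with earlier results of these data known. All 10 genes are named. Of each other list, the up to 4 called genes with the largest change, and the 2 with the largest change the other way, are named. The other genes named are Irak1, Irak4, Tab1 and Tab3 for whether they were measured, and markers. Where no gene of a list was called higher, the 2 most positive are given. Traf2, Tlr4, the ratios, Gm43912 and Mir146 were named after values were seen. Positions are from GENCODE M39, and near-identical stretches from blastn 2.17.0, with matches on either strand counted. Alternatives were pseudocounts of 0.1 and 5, a filter on the mean, genes at 0 kept, 3 other scalings, eBayes without a trend, voom weights, a replicate block, an adjusted p limit and leaving out each sample. The protein-coding total together with the block, and the count at an adjusted p under 0.05 in each fit, were added after seeing the data. All columns of the table were used.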

Additional observations from a re-analysis of the deposited data

How the results depend on the processing

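The count of adaptors and kinases called higher, 5, became 2 with a pseudocount of 5, with protein-coding totals, and with these totals and the replicate block, and 6 with a pseudocount of 0.1 and with voom weights. Leaving out 1 sample gave 3 to 5, the 3 without LPS replicate 2. The count of partners called higher, 0, became 1 with a pseudocount of 0.1, and 0 to 3 without 1 sample (3 without untreated replicate 2), and 1 was called lower each time. The 3 receptors called became 1 when only an adjusted p under 0.05 was asked for, and 1 to 3 without 1 sample (1 without untreated replicate 3 or LPS replicate 1). The 11 targets became 8 to 10 without 1 sample. No setting called an adaptor or kinase lower. The count at an adjusted p under 0.05, 4, became 2 with genes at 0 kept and with protein-coding totals, 0 with the replicate block alone or with these totals, and 0 to 4 without 1 sample. It was 3 with either other pseudocount, 5 without a trend and 6 with a filter on the mean.

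Directions reversed for genes whose groups overlap. With protein-coding totals, with or without the block, Myd88 was at -0.45, Tirap at -0.24 and Tab2 at -0.43. Tirap was at -0.029 with a pseudocount of 5 and at -0.057 after quantile normalization. Without 1 sample, Myd88 ranged from -0.14 to 0.25, Tirap from -0.41 to 0.58, Irak2 from -0.85 to 0.24 and Tab2 from -0.076 to 0.14. The cause was not tested.

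Same-numbered samples correlated at 0.0935, 0.199 and 0.0835 in their deviations from the group means over the 23049 genes. These values are small, but each sample correlated best with its own number. Marker sums also went with the number. In both groups sample 2 had the highest neutrophil sum, and sample 3 the highest erythroid and platelet sum (1716 untreated, 2573 after LPS). The labels do not say whether the numbers are pairs, and these values cannot decide it. The main fit did not take them as pairs. With the replicate block 5 adaptors and kinases were still called, and adjusted p values were higher, at 0.076 for Traf1, 0.082 for Ripk2, 0.13 for Irak3 and Map3k7, 0.18 for Tollip and 0.21 for Traf6. Over the alternatives, adjusted p ranged from 0.0039 to 0.089 for Traf1, 0.0093 to 0.13 for Ripk2, 0.013 to 0.18 for Map3k7, 0.019 to 0.17 for Irak3, 0.029 to 0.24 for Tollip and 0.031 to 0.31 for Traf6. Depth is unknown, so no limit of detection can be given for the genes below 1.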
